A study of Homo sapiens with 6 samples.

Results

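The lysyl oxidase family, the 5 genes LOX, LOXL1, LOXL2, LOXL3 and LOXL4, was followed through 6 RNA libraries made from MDA-MB-468 breast cancer cells. The members were chosen by name, as the 5 rows of the count table that carry these symbols out of 31122 rows in all. MDA-MB-468 is an established triple-negative, basal-like line. The 3 edited populations labelled GPR52 KO, made with CRISPR-Cas9 and sgRNA1 against the orphan receptor gene GPR52, gave 1 library each, titled 11, 12 and OG and called KO-labelled 1, 2 and 3 here. The comparison group was the unedited line, labelled WT, with 1 library from each of 3 wells of a plate, called parental-labelled 1, 2 and 3. Whether each edited population is a clone or a pool is not stated in the labels, no non-targeting guide was analysed here, and p-values measure the spread between these libraries, which may be technical.

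Lysyl oxidases are secreted, copper-dependent amine oxidases. They oxidise lysine side chains of collagen and elastin to aldehydes, which then condense into the covalent cross-links that stiffen the extracellular matrix. LOX and LOXL1 are made with a propeptide that BMP1-type proteases remove, whereas LOXL2, LOXL3 and LOXL4 carry scavenger receptor cysteine-rich domains in front of the same catalytic domain. In breast cancer the family is studied for its part in matrix stiffening, hypoxia responses and metastasis, and LOXL2 and LOXL3 have also been described as partners of the repressor Snail.

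Library totals were 25637794 to 31692454 counts, and 17420 genes had enough counts to be tested. GPR52 itself went against the label as a loss of transcript, with 645, 694 and 724 counts in KO-labelled libraries and 9, 1 and 0 in parental-labelled ones. The libraries are therefore named by their labels throughout, and every direction is given by label. Whether the labels were exchanged between the groups was not tested, and an exchange would reverse each direction. Markers of the cell line were present in both groups. EGFR averaged 5931 ± 2065 CPM (counts scaled to library size, corrected by TMM) in KO-labelled and 5114 ± 220.3 CPM in parental-labelled libraries (SD, n = 3 each, as for every ± below). KRT5 averaged 1707 ± 338 CPM in the KO-labelled group and 1201 ± 49.2 CPM in the parental-labelled group. Of 9 basal-like marker genes tested, 3 were higher in KO-labelled libraries, 2 lower and 4 not called by the edgeR rule given below. Over all tested genes 21.0% were higher and 19.8% lower. The lower markers were CDH3, at a log2 fold change of -0.76 (SE 0.10), and KRT18, at -0.46 (SE 0.14). Of 3 luminal receptor genes 2 were tested, with ESR1 lower at -1.75 (SE 0.25) and ERBB2 not called. SMAD4, which this line is known to have lost and which was singled out after its values were seen, had 13, 19 and 16 counts in KO-labelled libraries, against 17, 5 and 13 in parental-labelled ones.

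Start regions of LOX, LOXL1, LOXL3 and LOXL4 were searched for short sequence motifs, and no window of LOXL2 was analysed here. The windows below run from 250 bases before the annotated start to 50 bases after it, are taken from RefSeq on build GRCh38.p14, and are given for LOXL1 and LOXL3, which rose, and for LOX, which was not called. They are chr15:73926212-73926511 on the plus strand for LOXL1, chr2:74553893-74554192 on the minus strand for LOXL3 and chr5:122078210-122078509 on the minus strand for LOX, each written 5′ to 3′. Capitals mark the matches on either strand to the hypoxia-inducible factor core (ACGTG or GCGTG), the Snail E-box (CACCTG), an AP-1 site (TGANTCA), the TEAD motif (GGAATG) and the TATA box (TATAAA), with no overlap among the matches shown.
LOXL1: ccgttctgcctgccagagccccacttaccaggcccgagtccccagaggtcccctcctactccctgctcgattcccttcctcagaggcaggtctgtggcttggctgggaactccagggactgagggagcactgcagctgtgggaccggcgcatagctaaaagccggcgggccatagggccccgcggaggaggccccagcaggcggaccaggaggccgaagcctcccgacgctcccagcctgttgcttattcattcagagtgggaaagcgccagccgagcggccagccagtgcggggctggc
LOXL3: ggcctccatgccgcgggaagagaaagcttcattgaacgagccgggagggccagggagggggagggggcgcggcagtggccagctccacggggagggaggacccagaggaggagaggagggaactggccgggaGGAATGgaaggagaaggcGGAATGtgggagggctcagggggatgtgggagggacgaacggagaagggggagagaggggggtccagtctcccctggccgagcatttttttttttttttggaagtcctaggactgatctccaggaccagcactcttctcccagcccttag
LOX: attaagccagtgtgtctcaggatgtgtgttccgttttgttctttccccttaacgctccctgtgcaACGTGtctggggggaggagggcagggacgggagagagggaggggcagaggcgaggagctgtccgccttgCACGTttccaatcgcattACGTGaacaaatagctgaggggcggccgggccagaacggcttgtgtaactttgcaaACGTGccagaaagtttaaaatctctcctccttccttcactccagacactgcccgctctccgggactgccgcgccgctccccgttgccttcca

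The LOX window held 4 matches to the hypoxia core, at 185, 116, 98 and 42 bases before the start. That core is common, since 48.4% of all 35116 RefSeq windows of this length hold at least 1. The LOXL3 window held 2 TEAD matches, at 118 and 100 bases before the start, and 14.0% of windows hold at least 1. The LOXL1 window held none of the 5 motifs. RefSeq annotates further starts that are not printed here. The second LOXL3 window held 0 TEAD matches, 1 hypoxia core and 1 E-box, each of 2 further LOX windows held 2 hypoxia cores and 1 E-box, and the LOXL4 window held 1 E-box and none of the others. E-box, AP-1 and TATA matches occur in 20.6%, 7.71% and 11.5% of windows. These are matches of letters only, and no binding was measured.

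The comparison of edited populations with the unedited line gave opposite directions within the family. In this design an effect of editing at GPR52 cannot be told apart from other differences between the edited populations and the unedited line. LOXL2, the predominant member, was lower in KO-labelled libraries, LOXL1 and LOXL3 were higher, LOX was not called and LOXL4 was at the floor of detection. Of the 4 members with enough counts to test, 2 rose and 1 fell. Across all tested genes 40.8% were called by the same rule (edgeR quasi-likelihood test, Benjamini-Hochberg adjusted p under 0.05 over all 17420 genes), 21.0% higher and 19.8% lower. The groups did not overlap for 3 of the 4 members, against 54.4% of all tested genes, 27.4% with the KO-labelled group above and 27.1% with it below.

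**Figure D1:**
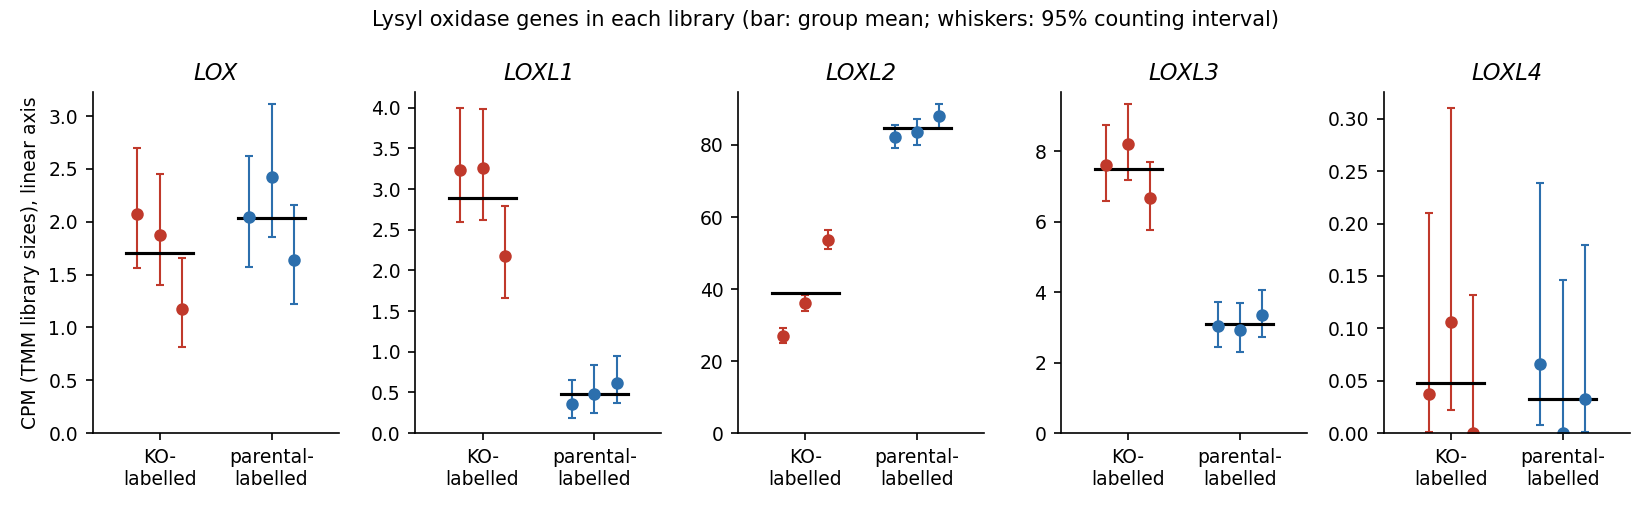
Each panel plots 1 gene in CPM on a linear axis from 0, with 1 point per library in order 1 to 3, KO-labelled at left in red and parental-labelled at right in blue, the group mean as a bar and the 95% exact Poisson interval as whiskers. LOXL1 and LOXL3 lie above all parental-labelled libraries in each KO-labelled one, LOXL2 lies below them, and LOX and LOXL4 overlap between groups.

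LOXL2 cross-links matrix collagens, type IV among them. Its counts were 718, 1018 and 1503 in KO-labelled libraries, or 27.1, 36.0 and 53.7 CPM, against 2494, 2102 and 2738 counts in parental-labelled ones, or 82.3, 83.5 and 88.0 CPM. Every KO-labelled library lay below every parental-labelled one, and the KO-labelled libraries lay far apart from each other. The group means were 38.9 ± 13.5 CPM and 84.6 ± 3.02 CPM, for a log2 fold change of -1.12 (SE 0.21, 95% interval -1.61 to -0.63, edgeR adjusted p 0.00405). That change ranked LOXL2 low among all genes, 4.58% of which had a lower log2 fold change. With 1 library left out at a time the change stayed between -1.42, without KO-labelled 3, and -0.92, without KO-labelled 1.

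The spread of LOXL2 within the KO-labelled group was much wider than counting error. Its coefficient of variation was 34.8% there, where counting alone gives 3.04%, and 3.56% in the parental-labelled group, where counting gives 2.03%. Relative to the parental-labelled mean, KO-labelled 1 held 32.0%, KO-labelled 2 held 42.5% and KO-labelled 3 held 63.4% of the LOXL2 level. Their 95% exact Poisson intervals, 25.1 to 29.1, 33.8 to 38.3 and 51.0 to 56.4 CPM, did not meet, although with 1 library per population this compares libraries and covers counting error only.

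LOXL1 is best known for elastic fibre maintenance. It had 86, 92 and 61 counts in KO-labelled libraries, or 3.24, 3.25 and 2.18 CPM, against 11, 12 and 19 counts in parental-labelled ones, or 0.363, 0.477 and 0.611 CPM. The lowest KO-labelled library stood well above the highest parental-labelled one. The means were 2.89 ± 0.617 CPM and 0.484 ± 0.124 CPM, and the fitted change was 5.91-fold (95% interval 3.78 to 9.24), or 2.56 on the log2 scale (SE 0.28, edgeR adjusted p 2.8e-04). Only 1.72% of tested genes had a higher log2 fold change. In the limma test on log2(FPKM + 1), a scale that understates the change of low genes, LOXL1 was at 1.63 with an adjusted p of 1.2e-04. Of a list of 9 fibroblast marker genes 7 were in the count table, and they summed to 24.6 to 32.0 CPM in KO-labelled libraries and 9.10 to 11.3 CPM in parental-labelled ones. Most of each sum was COL1A1, with 620, 720 and 773 counts in KO-labelled and 221, 162 and 255 in parental-labelled libraries. FAP had 21, 21 and 111 counts in KO-labelled and 92, 62 and 91 in parental-labelled libraries, and PDGFRA had 9, 7 and 4 in KO-labelled and 1, 3 and 0 in parental-labelled ones. PDGFRB had at most 8 counts, and THY1, LUM and COL1A2 at most 1, in any library. The part of these genes' source in the LOXL1 result was not tested.

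LOXL3, which acts on collagens and fibronectin and is needed for palate and spine development in mice, had 202, 232 and 187 counts in KO-labelled libraries, or 7.61, 8.20 and 6.68 CPM. Parental-labelled libraries had 92, 74 and 104 counts, or 3.04, 2.94 and 3.34 CPM. All KO-labelled values exceeded all parental-labelled ones, and both groups were tight. With means of 7.50 ± 0.770 CPM and 3.11 ± 0.211 CPM the change was 2.41-fold (95% interval 1.92 to 3.01), or 1.27 on the log2 scale (SE 0.14, edgeR adjusted p 2.9e-04). The coefficient of variation was 10.3% in the KO-labelled group and 6.79% in the parental-labelled group, where counting alone gives 6.95% and 10.6%.

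LOX, the founding member, was a minor transcript here. It had 55, 53 and 33 counts in KO-labelled libraries, or 2.07, 1.87 and 1.18 CPM, against 62, 61 and 51 counts in parental-labelled ones, or 2.05, 2.42 and 1.64 CPM. The groups overlapped, with KO-labelled 3 below every other library. The log2 fold change was -0.24 (SE 0.25, edgeR adjusted p 0.475), and its 95% interval of -0.83 to 0.34 allows a fall of up to 1.77-fold and a rise of up to 1.27-fold. LOX was therefore not shown to be alike in both groups.

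LOXL4 had 1, 3 and 0 counts in KO-labelled libraries and 2, 0 and 1 in parental-labelled ones. It did not pass the filter on low counts and was not tested with the other members. The floor of 3 counts was 0.107 CPM in KO-labelled 3 and 0.119 CPM in parental-labelled 2. For these counts of 0 the 95% exact Poisson interval reached 0.132 CPM in KO-labelled 3 and 0.147 CPM in parental-labelled 2. A difference between levels this low was therefore not detectable at this depth, and no fold is given.

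Levels can be set beside each other between genes only per length, for which the authors' FPKM (fragments scaled by transcript length and library size) values were used. In KO-labelled libraries LOXL2 had 7.45, 10.6 and 16.5 FPKM, LOXL1 had 4.16, 3.92 and 3.75 FPKM, LOXL3 had 2.88, 2.83 and 2.95 FPKM, and LOX had 0.455, 0.641 and 0.324 FPKM. In parental-labelled libraries LOXL2 had 23.4, 21.9 and 24.2 FPKM, LOXL3 had 1.02, 0.957 and 1.12 FPKM, LOXL1 had 0.350, 0.728 and 0.742 FPKM, and LOX had 0.526, 0.565 and 0.475 FPKM. On FPKM the order in the KO-labelled group was LOXL2, LOXL1, LOXL3, LOX in each library, with no overlap between neighbours in that order. The order of LOXL1 and LOXL3 there turned when CPM was divided by the length of the longest coding transcript in GENCODE, with 1.38, 1.38 and 0.926 CPM per kb for LOXL1 and 2.17, 2.34 and 1.91 CPM per kb for LOXL3 in KO-labelled libraries. In the parental-labelled group LOXL2 led and LOXL3 came next, while LOXL1 and LOX overlapped. Per kb of transcript they did not, with 0.154, 0.203 and 0.260 CPM per kb for LOXL1 and 0.401, 0.475 and 0.321 CPM per kb for LOX in parental-labelled libraries. LOXL4 was last in both groups, at 0.00906, 0.0255 and 0 FPKM in KO-labelled and 0.0154, 0 and 0.00879 FPKM in parental-labelled libraries.

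The make-up of the family therefore differed between the groups. LOXL2 held 59.6 ± 10.2% of the 5 genes' summed FPKM in KO-labelled libraries and 91.4 ± 0.902% in parental-labelled ones. LOXL1 held 21.8 ± 5.95% in KO-labelled and 2.39 ± 0.886% in parental-labelled libraries. LOXL3 held 15.8 ± 3.37% in KO-labelled and 4.06 ± 0.123% in parental-labelled libraries. None of these 3 shares overlapped between groups, and the exact two-sided permutation test gave p = 0.1 for each, the smallest value that 3 libraries against 3 allow. Shares of one sum are tied to one another, since a lower share of LOXL2 raises those of the others, so these tests are not separate evidence. LOX held 2.66 ± 1.14% in KO-labelled and 2.07 ± 0.275% in parental-labelled libraries (exact permutation p = 0.4). Its mean FPKM went the other way, at 0.474 in KO-labelled and 0.522 in parental-labelled libraries. LOXL4 held 0.0673 ± 0.0710% in KO-labelled and 0.0313 ± 0.0305% in parental-labelled libraries (exact permutation p = 0.7).

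Summed over the family, FPKM came to 14.95, 18.0 and 23.6 in KO-labelled libraries, against 25.4, 24.2 and 26.6 in parental-labelled ones. With LOXL2 left out, the other members summed to 7.51, 7.42 and 7.03 FPKM in KO-labelled libraries and 1.92, 2.25 and 2.34 FPKM in parental-labelled ones. The order of the KO-labelled libraries in the family sum was thus that of LOXL2.

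**Figure D2:**
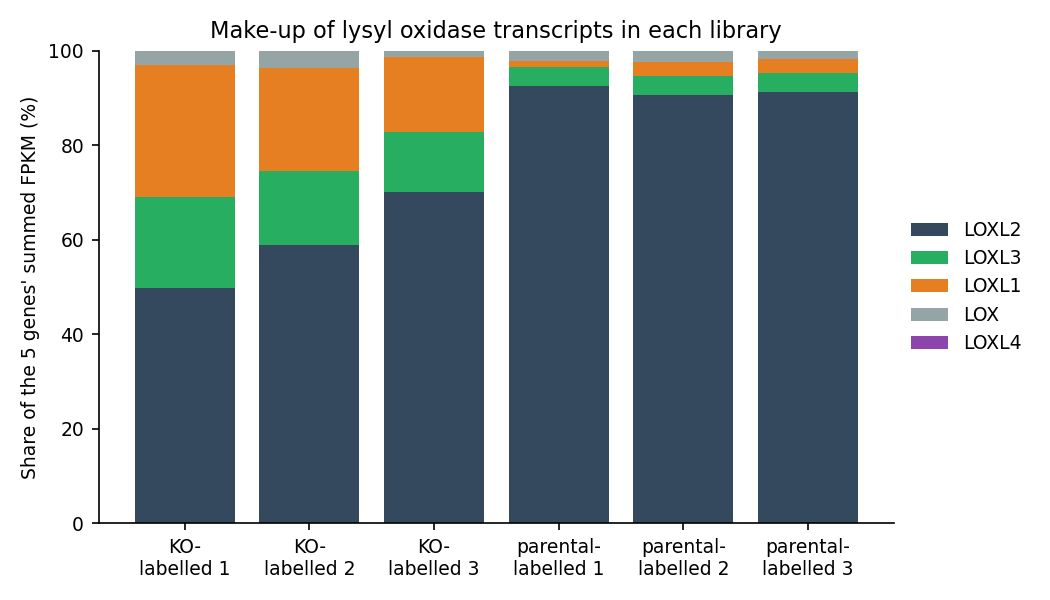
Stacked bars give each gene's share, in percent, of the 5 genes' summed FPKM in each library, KO-labelled libraries left of parental-labelled ones. LOXL2 takes 49.8%, 58.8% and 70.2% in KO-labelled 1 to 3 and 90.7% to 92.4% in the parental-labelled libraries, while LOXL1 and LOXL3 widen in the KO-labelled ones.

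The share of LOXL1 depends on how its reads were turned into FPKM. The length that its counts and FPKM imply together was 0.586 to 0.839 kb in KO-labelled and 0.643 to 1.03 kb in parental-labelled libraries, against 2351 bases for its longest coding transcript in GENCODE. For LOXL2 the implied length was 3.28 to 3.71 kb in the KO-labelled group and 3.47 to 3.74 kb in the parental-labelled group, beside a longest coding transcript of 3549 bases. On raw counts LOXL1 held 6.03 ± 2.39% of the family in KO-labelled and 0.533 ± 0.119% in parental-labelled libraries, and LOXL2 held 74.9 ± 8.51% in KO-labelled and 93.7 ± 0.264% in parental-labelled libraries. LOXL3 held 15.4 ± 4.40% of raw counts in KO-labelled and 3.44 ± 0.141% in parental-labelled libraries, above LOXL1 in both groups. The direction of each was the same on both scales.

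Each member was then set beside its neighbours on the chromosome, in GENCODE order. LOXL1 on chromosome 15 overlaps the antisense gene LOXL1-AS1, whose annotated start lies 1786 bases away on the other strand. LOXL1-AS1 had 73, 81 and 42 counts in KO-labelled libraries and 13, 12 and 11 in parental-labelled ones, for a log2 fold change of 2.50 (SE 0.34, edgeR adjusted p 8.6e-04). The libraries kept strand, but the strand setting of the counting is not given in the sources used here, so reads of LOXL1 and LOXL1-AS1 may not have been told apart. The next genes rose too. On the log2 scale STOML1 was higher by 0.89 (SE 0.16), PML, which builds nuclear bodies, by 0.79 (SE 0.10) and ISLR by 2.43 (SE 0.32). Of the 10 tested genes on each side of LOXL1, 20 in all, 17 were higher and 0 lower, against 21.0% higher and 19.8% lower of all tested genes, the background for each neighbourhood here. Their median log2 fold change was 0.88, against 0.01 over all tested genes. The lowest of these 20 log2 fold changes was 0.11, so 0 were lower at an unadjusted p under 0.05 too, and 0 by DESeq2 or limma voom.

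LOXL3 on chromosome 2 overlaps genes on both sides that lie on the other strand. DOK1 encodes an adaptor protein of tyrosine kinase signalling. Its second RefSeq start lies 778 bases from the start in the printed LOXL3 window, in the opposite direction. Other pairs of annotated starts were not compared. DOK1 had 119, 86 and 94 counts in KO-labelled and 56, 33 and 46 in parental-labelled libraries, for a log2 fold change of 1.22 (SE 0.22, edgeR adjusted p 0.00315). HTRA2, a mitochondrial protease, was at 0.47 (SE 0.08) and AUP1, which works in lipid droplets and protein quality control, at 0.78 (SE 0.06). Of the 20 tested genes around LOXL3, 14 were higher and 0 lower by edgeR, with a median of 0.46. At an unadjusted p under 0.05, 1 was lower, and 0 were by DESeq2 or limma voom. The lowest, M1AP, was at -0.48 (SE 0.24) and was not called.

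On chromosome 8 the nearest tested gene on each side of LOXL2 was not called. R3HCC1 was at 0.16 (SE 0.15) and ENTPD4 at 0.03 (SE 0.16) on the log2 scale, and the median of the 20 tested genes around it was 0.03, with 3 higher and 3 lower. ENTPD4, which overlaps LOXL2 on the same strand, had 1824, 1700 and 1187 counts in KO-labelled libraries, lowest in KO-labelled 3, where LOXL2 was highest. Around LOX on chromosome 5 the median was -0.05, with 2 genes higher and 3 lower. SRFBP1, which overlaps LOX on the other strand, had 446, 481 and 378 counts in KO-labelled and 592, 524 and 566 in parental-labelled libraries and a log2 fold change of -0.31 (SE 0.12) that was not called (edgeR adjusted p 0.0679). SNCAIP, on the other side of LOX, fell by 1.59 on the log2 scale (SE 0.20). Around LOXL4 on chromosome 10, 2 of 20 genes were higher and 5 lower, with a median of -0.08, and the nearest, R3HCC1L at 0.19 (SE 0.07) and PYROXD2 at -0.29 (SE 0.17), were not called.

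**Figure D3:**
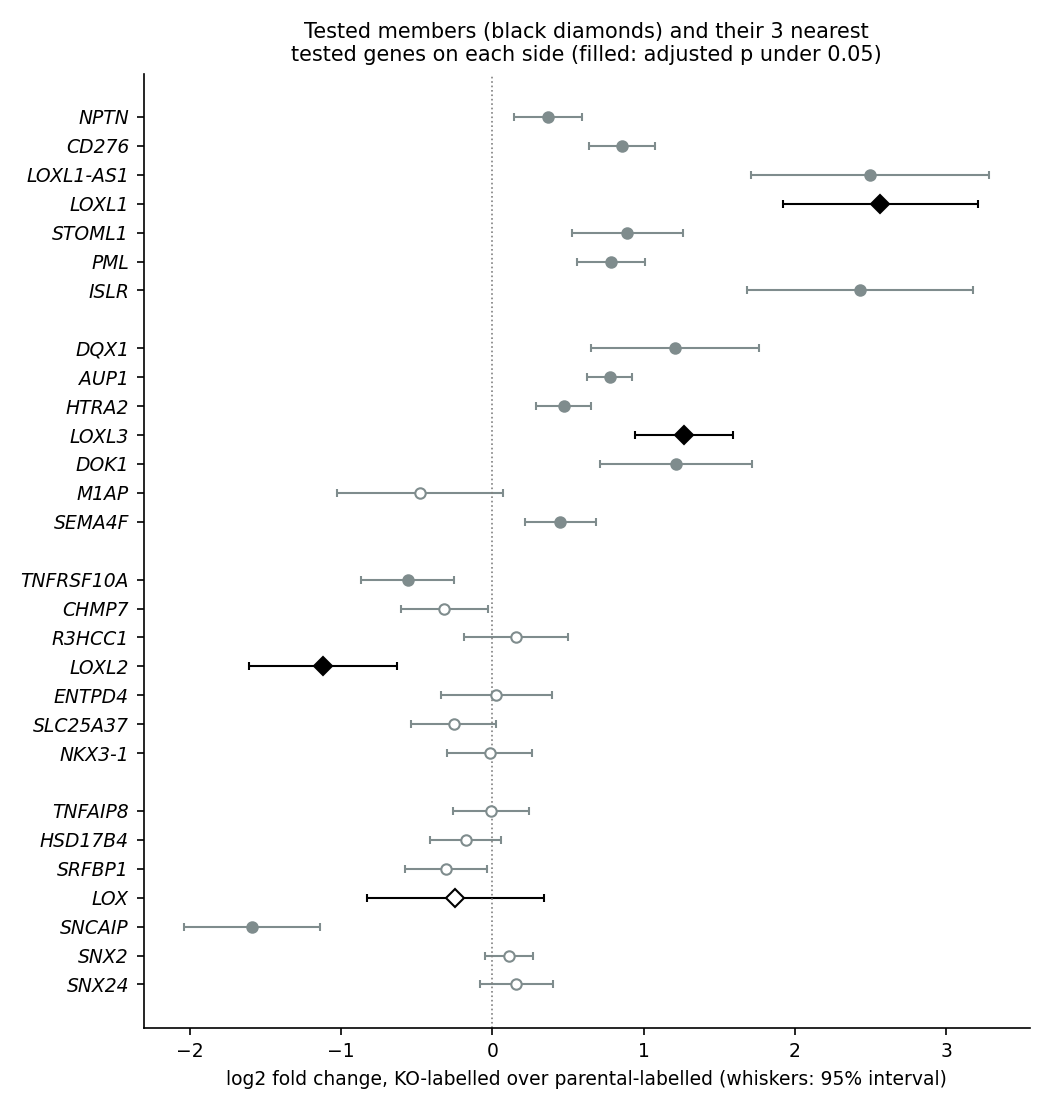
Log2 fold changes of KO-labelled over parental-labelled libraries with 95% intervals are drawn for the 4 tested members as black diamonds and for the 3 nearest tested genes on each side in grey, filled where the adjusted p was under 0.05. The neighbours of LOXL1 and most of those of LOXL3 lie right of 0, whereas LOXL2 lies at -1.12 among neighbours between -0.56 and 0.16.

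The genes whose levels followed each member most closely were found by Pearson's r of log2 CPM over the 6 libraries, among 12148 or 12149 genes with an average log2 CPM of at least 2. Such an r mostly follows the difference between the groups and is given as a description. For LOXL2 they were MSN, which encodes the actin-membrane linker moesin, its pseudogene MSNP1, whose reads may be shared with it, and the annexin gene ANXA3, with r of 0.999 each. MSN had 132, 163 and 234 CPM in KO-labelled and 353, 354 and 354 CPM in parental-labelled libraries, lowest in KO-labelled 1 and highest in KO-labelled 3 of that group, as was LOXL2. For LOXL1 they were NRSN2, MEPCE and RPP25 (r 0.999, 0.999 and 0.998), for LOXL3 GRPEL2, KRI1 and FAM50A (r 0.999, 0.999 and 0.998), and for LOX SENP7, RPL26P30 and SEC22C (r 0.983, 0.983 and 0.982).

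Of 13 genes that mature lysyl oxidases 8 were tested, 5 higher, 1 lower and 2 not called, with a median log2 fold change of 0.90. The background for this list and each list below is 40.8% called of all tested genes, 21.0% higher and 19.8% lower. The median over all tested genes was 0.01. PCSK6, the proprotein convertase PACE4, averaged 25.8 ± 3.28 CPM in KO-labelled and 10.5 ± 0.633 CPM in parental-labelled libraries, 1.30 higher on the log2 scale (SE 0.12). FURIN, which activates BMP1-type proteases, averaged 61.4 ± 6.51 CPM in KO-labelled and 27.2 ± 2.94 CPM in parental-labelled libraries, 1.18 higher on the log2 scale (SE 0.11). BMP1, the main protease that cleaves the LOX propeptide, went the other way, with 43.6 ± 1.93 CPM in KO-labelled and 52.8 ± 0.861 CPM in parental-labelled libraries, a log2 fold change of -0.28 (SE 0.07, edgeR adjusted p 0.0151). FN1, the fibronectin that binds LOX, had 27.9, 45.4 and 69.2 CPM in KO-labelled libraries, against 52.1, 51.6 and 49.3 CPM in parental-labelled ones, and was not called.

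Lysyl oxidases receive their copper in the secretory pathway, mainly from the pump ATP7A. ATP7A had 26.8, 22.3 and 18.3 CPM in KO-labelled libraries and 50.7, 47.1 and 44.9 CPM in parental-labelled ones. The groups did not overlap, and the log2 fold change was -1.08 (SE 0.14, edgeR adjusted p 5.4e-04). On the copper list 11 of 13 genes were tested, with 2 higher, 6 lower and 3 not called and a median of -0.31. SLC31A2, a relative of the copper importer, had a log2 fold change of -0.87 (SE 0.09), while the metallothionein MT1X had 1.56 (SE 0.16) and the copper chaperone CCS 0.33 (SE 0.08). The number called, 8, was 4 without parental-labelled 1 and 5 without parental-labelled 2 or 3, while over all genes it was 4922, 4879 and 5263 without parental-labelled 1, 2 and 3, in place of 7105.

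Substrates of the enzymes changed in both directions. Of 11 fibrillar collagen genes 6 were tested, with 2 higher, 3 lower and 1 not called and a median of -0.39. COL1A1 averaged 25.5 ± 2.12 CPM in KO-labelled and 7.31 ± 0.881 CPM in parental-labelled libraries, for a log2 fold change of 1.80 (SE 0.12). COL5A1 had 331, 235 and 484 counts in KO-labelled and 2, 0 and 0 in parental-labelled libraries. COL5A2 averaged 4.20 ± 0.272 CPM in KO-labelled and 59.9 ± 4.03 CPM in parental-labelled libraries, and COL3A1 had 1, 2 and 0 counts in KO-labelled and 193, 151 and 221 in parental-labelled libraries. All 6 type IV collagen genes, which form basement membrane networks, were tested, with 5 higher, 0 lower and 1 not called by edgeR, and with no log2 fold change below 0 and a median of 0.995. The 1 not called, COL4A3, was at 0.50 (SE 0.25). On the log2 scale COL4A1 was higher by 4.77 (SE 0.16) and COL4A2 by 3.08 (SE 0.09). Elastin (ELN), the main substrate of LOXL1, had 5, 8 and 7 counts in KO-labelled and 4, 0 and 6 in parental-labelled libraries and was not tested.

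Of 18 elastic fibre genes, elastin included, 11 were tested, with 4 higher, 3 lower and 4 not called and a median of 0.21. LTBP2, a latent TGF-beta binding protein, averaged 9.56 ± 0.537 CPM in KO-labelled and 1.94 ± 0.186 CPM in parental-labelled libraries, and FBN1, the microfibril protein fibrillin-1, had a log2 fold change of 1.83 (SE 0.31). FBLN1, the matrix glycoprotein fibulin-1, averaged 156.8 ± 24.5 CPM in KO-labelled and 432 ± 34.5 CPM in parental-labelled libraries, and EFEMP1 fell by 3.04 on the log2 scale (SE 0.36). Among collagen-modifying enzymes and chaperones 4 were higher, 5 lower and 6 not called of 15 tested among 18, with a median of -0.15. P4HB, a subunit of prolyl 4-hydroxylase, was higher by 0.55 (SE 0.06) and the prolyl isomerase FKBP14 by 0.60 (SE 0.12) on the log2 scale. CRTAP, part of the prolyl 3-hydroxylation complex, was at -0.78 (SE 0.08), and PLOD2, which hydroxylates the telopeptide lysines that lysyl oxidases act on, at -0.55 (SE 0.07).

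LOX, LOXL2 and LOXL4 have been described as hypoxia-inducible in breast cancer cells. On the hypoxia list 1 of 20 tested genes was higher, 8 lower and 11 not called, with a median of -0.30, and 15 were called without KO-labelled 3, where the number over all genes was 9367 in place of 7105. HIF1A encodes the oxygen-regulated factor, of which only the RNA was measured here. HIF1A averaged 182 ± 5.99 CPM in KO-labelled and 291 ± 8.06 CPM in parental-labelled libraries, a log2 fold change of -0.68 (SE 0.06, edgeR adjusted p 1.1e-04). On the log2 scale PGK1, a glycolytic enzyme, was at -1.24 (SE 0.08), and DDIT4, an inhibitor of mTORC1, at 2.001 (SE 0.20). The KO-labelled libraries differed among themselves in the same order as for LOXL2. CA9, carbonic anhydrase 9, had 14.5, 37.1 and 45.2 CPM in KO-labelled 1, 2 and 3, against 70.4, 72.5 and 79.8 CPM in parental-labelled libraries. VEGFA, an angiogenic growth factor, had 54.7, 88.1 and 118 CPM in KO-labelled 1, 2 and 3, against 139, 139 and 138 CPM in parental-labelled libraries. In 17 of the 20 tested hypoxia genes KO-labelled 1 was lowest and KO-labelled 3 highest of the KO-labelled group with 2 between them, against 20.4% of all tested genes. This order was looked for, and CA9 and VEGFA were named, after the values had been seen. LOX did not share it, with its lowest value in KO-labelled 3.

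TGF-beta signalling and Snail are among the regulators linked to the family. Of 14 TGF-beta pathway genes tested 1 was higher, 3 lower and 10 not called, with a median of -0.09, and 8 were called without KO-labelled 3, a setting that also raised the number over all genes. TGFBR3, a co-receptor, was at 0.87 (SE 0.09) on the log2 scale, the receptor TGFBR1 at -1.11 (SE 0.09) and the ligand TGFB3 at -1.31 (SE 0.15). Of the Snail and E-cadherin list 4 of 8 genes were tested, with 1 higher, 1 lower and 2 not called and a median of -0.17. SNAI1, which encodes Snail, had 1.85, 5.06 and 3.53 CPM in KO-labelled libraries and 1.88, 1.11 and 1.67 CPM in parental-labelled ones. The groups overlapped, and the log2 fold change of 1.15 (SE 0.37) had an edgeR adjusted p of 0.0382. The number called on this list was 1 without KO-labelled 2, with 6102 over all genes, and 1 without any 1 of the parental-labelled libraries. CDH1 (E-cadherin), a gene that Snail represses, averaged 209 ± 10.6 CPM in KO-labelled and 279 ± 12.9 CPM in parental-labelled libraries, -0.42 on the log2 scale (SE 0.07). Of the other copper amine oxidases, AOC3 was higher by 2.32 (SE 0.33) and AOC2 by 1.54 (SE 0.35) on the log2 scale, and AOC1 was not tested.

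**Figure D4:**
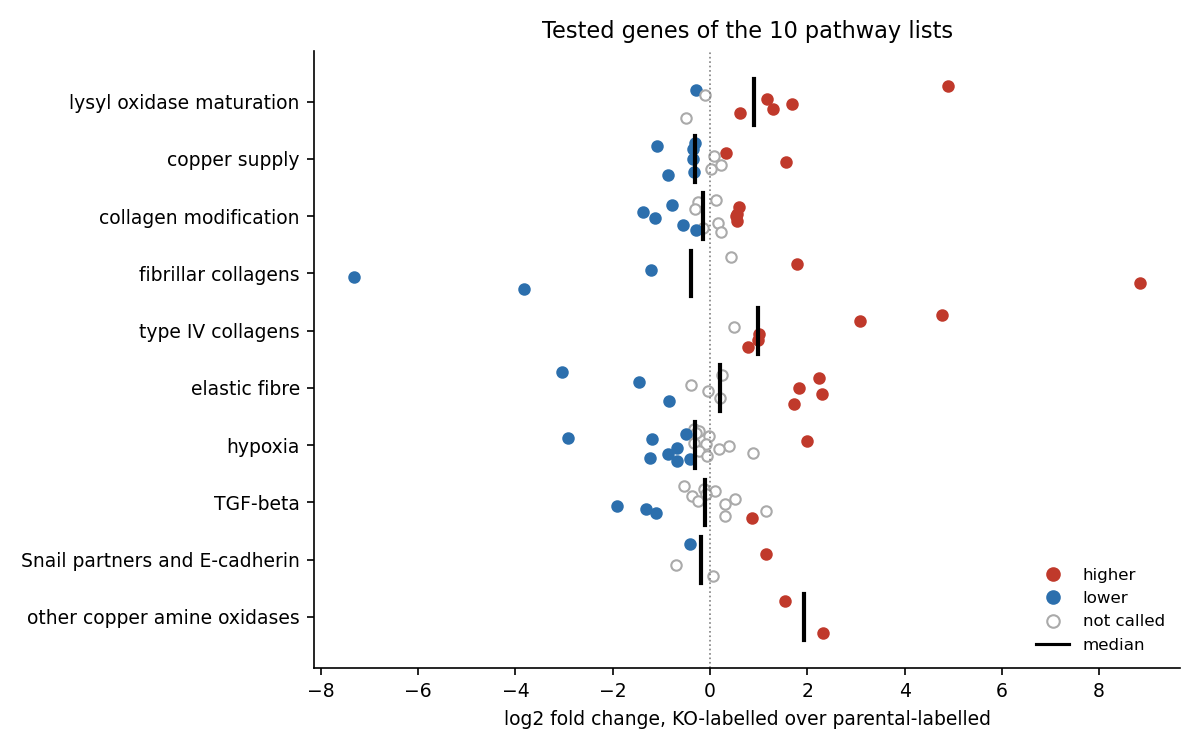
Points are log2 fold changes of KO-labelled over parental-labelled libraries for the tested genes of the 10 pathway lists, red where higher, blue where lower and open grey where not called, with the list median as a black line. Type IV collagens and maturation genes lie mostly right of 0 and hypoxia genes mostly left. Copper genes lie on both sides, with their median left of 0.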

How the data were processed

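The authors deposited raw counts, in a table keyed by gene symbol, and FPKM values in another, each with 1 column per sample. STAR 2.4.0f1, Cufflinks 2.0.2, SAMtools 0.1.19 and hg19 appear, with no roles, in the submitters' processing notes. For the counting program, annotation and strand setting, the sources used here give nothing. Per the labels' protocols, libraries came from poly(A) RNA and a directional kit. Counts were tested with edgeR 4.0.16 in R 4.3.3 (filterByExpr with minimum count 10 and minimum total count 15, TMM, quasi-likelihood F test, 6 libraries, no covariate, adjusted over 17420 genes), and each SE is the log2 fold change divided by the root of F. At 0.0321 to 0.0397 CPM a count, Poisson intervals and floors of 3 counts cover counting error only. The code was tested on simulated data. Alternatives used DESeq2 1.42.0, limma 3.58.1, other scalings, filters and left-out libraries. Members and lists were chosen with earlier results of these data known. Named genes were the members, GPR52, the nearest gene on each side of each member, the 3 most alike genes each, up to 2 called genes in each direction per list, ATP7A, BMP1, SNAI1, HIF1A, CDH1 and ELN. PML, ISLR, AUP1, M1AP, EGFR, KRT5, CDH3, KRT18, ESR1, ERBB2, SMAD4, FN1, FAP, PDGFRA, PDGFRB, THY1, LUM, COL1A2, COL4A3, CA9, VEGFA and AOC1 were added after the data were seen. The neighbourhoods of 10 genes a side, the order of KO-labelled libraries and the motifs were also chosen after the data were seen. List genes with no row in the count table were not analysed here. GENCODE (GRCh38) gave gene order, strand, overlap and transcript lengths only.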

Additional observations from a re-analysis of the deposited data

How the results depend on the processing

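LOXL1, LOXL2 and LOXL3 kept their direction and their call, and LOX stayed uncalled, under all alternatives that gave a value, which were 16 for LOXL2 and 15 for each of the others. Adjusted p ranged over them from 5.7e-11 to 0.00280 for LOXL1, 1.7e-06 to 0.0220 for LOXL2, 1.6e-10 to 0.00334 for LOXL3 and 0.291 to 0.908 for LOX. With 1 library left out at a time the log2 fold changes were 2.38 to 2.77 for LOXL1, -1.42 to -0.92 for LOXL2, 1.20 to 1.34 for LOXL3 and -0.40 to -0.03 for LOX. LOXL4, left out of the other edgeR fits by the filter, had an adjusted p of 0.822 in the edgeR fit with no filter, and DESeq2 gave it no adjusted p. A filter of 10 CPM in 3 libraries left only LOXL2 of the members to test, and so 1 member called in place of 3. On raw counts in place of FPKM the difference in share, KO-labelled minus parental-labelled, was 5.50 percentage points for LOXL1 and -18.8 for LOXL2, in place of 19.4 and -31.8. With 1 library left out these differences on FPKM were 16.5 to 22.4 for LOXL1, -37.1 to -27.0 for LOXL2, 10.1 to 13.4 for LOXL3 and 0.143 to 1.24 for LOX.

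Under the 10 CPM filter, which tests fewer genes, the numbers called were 3 for maturation, 2 for fibrillar collagens, 3 for type IV collagens, 2 for elastic fibre, 1 for the Snail list and 0 for other amine oxidases. On log2(FPKM + 1) they were 3 for maturation, 3 for type IV collagens and 1 for the Snail list, which was also 1 under limma voom and on log2(FPKM + 0.1). The cause was not tested. With 1 library left out, all genes gave 4879 to 9367 calls, copper genes gave 4 to 8 calls, hypoxia genes 6 to 15, TGF-beta genes 4 to 8 and the Snail list 1 to 3. No paired analysis was possible because the labels pair no library of one group with a library of the other. Depth limits LOXL4, at 0 to 3 counts, and ELN.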
